A study of Mus musculus with 6 samples.

Results

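MHC class II antigen presentation was examined as a group of 9 genes: the classical chains H2-Aa, H2-Ab1 and H2-Eb1, the peptide exchange chains H2-DMa and H2-DMb1, the exchange inhibitor chains H2-Oa and H2-Ob, the invariant chain gene Cd74 and the coactivator gene Ciita. A member was taken where a probe set of the array was annotated to that gene alone, and the brightest such probe set stood for the gene. This gave 8 of the 9 members among 22180 genes tested; Cd74 had no probe set of its own. The samples were adipose tissue of mouse offspring aged 32 weeks, with 3 arrays labelled maternal chromium restriction diet and 3 arrays labelled control diet. The control label does not say whose diet it names. The chromium restriction group is called the restriction group below, and all 6 samples share the tissue and the age. The sources used here do not give strain, sex, fat depot, litter or the diet of the offspring themselves. The labels number the samples 1 to 3 in each group, and whether each number is its own animal or litter is unstated, so a p-value here covers the spread among the arrays and no more.

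Class II molecules are pairs of an alpha and a beta chain that carry peptides from endosomes to the cell surface, where CD4 T cells read them. The invariant chain fills the groove of new molecules, endosomal proteases cut it down to a short stub, and the DM pair exchanges that stub for a peptide while the DO pair, made mostly by B cells, inhibits DM. The coactivator Ciita switches these genes on in dendritic cells, macrophages and B cells, and interferon gamma induces it in other cells; in adipose tissue, class II is best known on macrophages and dendritic cells, and adipocytes have been described to carry it too.

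Class II genes share a promoter element in which an X box, bound by the RFX complex, precedes a Y box, bound by NF-Y, and Ciita docks on the proteins bound there. The first 4 stretches below are shown because they carry this shared element, and that of H2-Aa because it holds the Y core without the pair. The 250 bases before each RefSeq transcript start (assembly GRCm38.p6) were searched on both strands for AGNAAC, a core of the X box, followed by GATTGG, the core of the Y box, with 28 to 40 bases from start to start, so that the motifs cannot overlap. Of 9 members 6 had a promoter entry that was used, and 4 of these 6 held the pair: H2-Eb1, H2-DMb1, H2-Oa and H2-Ob. H2-Ab1, Ciita and Cd74 are not in this count, and Cd74 was left out by its chromosome. Of all 32851 promoters listed, 0.207% held the pair, 14.6% held the Y core and 42.3% held the X core. Each line gives 60 bases before the Y core and 14 after it, 5′ to 3′ on the strand of the gene, with the Y core and, where the pair was found, the X core in capitals.
H2-Eb1: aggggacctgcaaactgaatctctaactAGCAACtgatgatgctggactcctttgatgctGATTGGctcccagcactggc
H2-DMb1: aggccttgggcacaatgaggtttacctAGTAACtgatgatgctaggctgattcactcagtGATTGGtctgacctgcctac
H2-Oa: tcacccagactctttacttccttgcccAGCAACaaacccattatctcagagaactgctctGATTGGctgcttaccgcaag
H2-Ob: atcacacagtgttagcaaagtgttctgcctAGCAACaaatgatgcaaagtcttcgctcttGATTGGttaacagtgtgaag
H2-Aa: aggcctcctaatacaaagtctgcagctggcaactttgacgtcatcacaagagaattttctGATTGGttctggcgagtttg

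The H2-Eb1 stretch lies on the plus strand at chr17:34305747-34305826, that of H2-DMb1 on the plus strand at chr17:34153069-34153148, and that of H2-Oa on the plus strand at chr17:34092275-34092354. The H2-Ob stretch is on the plus strand at chr17:34238787-34238866, and the H2-Aa stretch is on the minus strand at chr17:34287853-34287932. The distance from X core to Y core was 32 bases in H2-Eb1, 33 in H2-DMb1 and H2-Oa, and 30 in H2-Ob. The H2-Aa window held the Y core and no AGNAAC at that distance, and neither start of H2-DMa held the pair. In H2-DMa a Y core lay 199 bases before 1 of its starts, and that stretch is not shown. A match is a description of letters, and the absence of one says only that these letters are not in the window.

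**Figure D1:**
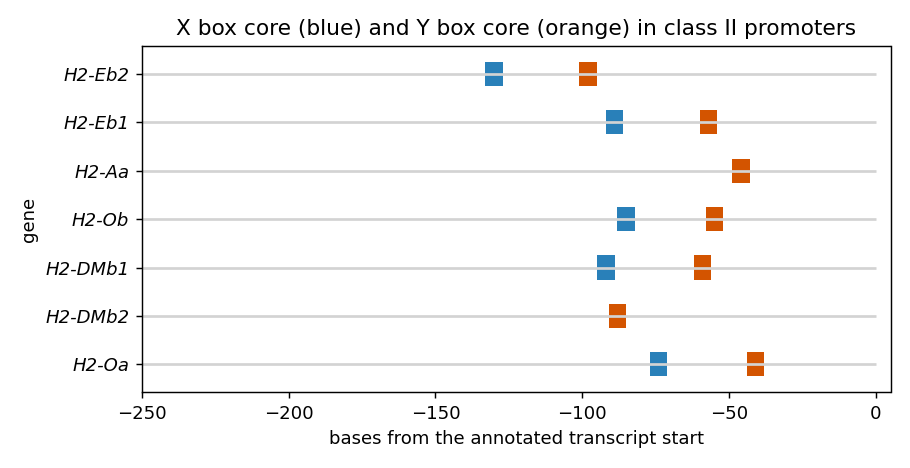
Position of the X box core (blue) and the Y box core (orange) in bases before the annotated transcript start, for 5 members and the related genes H2-DMb2 and H2-Eb2; the grey line is the 250 bases searched. The Y core starts 44 to 101 bases before the transcript start in these 7 genes, and the X core precedes it in 5 of them. H2-DMa, with a Y core 199 bases before 1 of its starts, is not drawn.

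The classical chains and H2-DMa were higher in every restriction array than in any control array, by similar amounts. H2-Ab1, the beta chain of the I-A molecule, was at 11.55, 11.66 and 11.57 in restriction replicates 1, 2 and 3 and at 11.19, 11.26 and 11.36 in control replicates 1, 2 and 3 (log2 signal, as deposited). The groups did not overlap, and the lowest restriction array lay 0.19 above the highest control. The group means were 11.59 ± 0.06 and 11.27 ± 0.09 (SD, n = 3 per group), a log2 difference of 0.32 ± 0.08 (SE) or 1.25-fold, with an adjusted p of 0.632 in limma.

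H2-Aa, the alpha chain that pairs with H2-Ab1, was at 9.99, 9.89 and 9.77 in restriction replicates 1, 2 and 3 and at 9.38, 9.47 and 9.68 in the controls. Again all restriction arrays lay above all controls, with a gap of 0.09 between the groups. Its log2 difference was 0.37 ± 0.11 (SE, n = 3 per group), 1.29-fold (adjusted p = 0.725, limma).

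H2-Eb1, the beta chain of the I-E molecule, was at 9.75, 9.73 and 9.67 in the restriction arrays and at 9.08, 9.49 and 9.54 in the controls. The restriction arrays lay close together, with an SD of 0.04, while control replicate 1 stood below the other controls and the control SD was 0.25. Its log2 difference was 0.35 ± 0.13 (SE, n = 3 per group), 1.27-fold (adjusted p = 0.817, limma), and 0.20 without control replicate 1.

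H2-DMa, the alpha chain of the peptide exchange molecule, was at 7.29, 7.24 and 7.26 in the restriction arrays and at 6.76, 6.88 and 7.09 in the controls. The restriction arrays spread over an SD of 0.03 and the controls over 0.16, and the groups did not overlap. Its log2 difference was 0.35 ± 0.10 (SE, n = 3 per group), 1.28-fold (adjusted p = 0.707, limma). In all 4 of these genes control replicate 1 was the lowest of the 6 arrays.

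Ciita, the coactivator of the class II promoters, was at 6.98, 7.37 and 6.82 in restriction replicates 1, 2 and 3 and at 6.62, 6.74 and 6.66 in the controls. All restriction arrays lay above all controls, by 0.07 at the closest, but replicate 2 was 0.39 above every other array. The log2 difference was 0.38 ± 0.15 (SE, n = 3 per group; adjusted p = 0.817, limma), and without restriction replicate 2 it was 0.22.

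**Figure D2:**
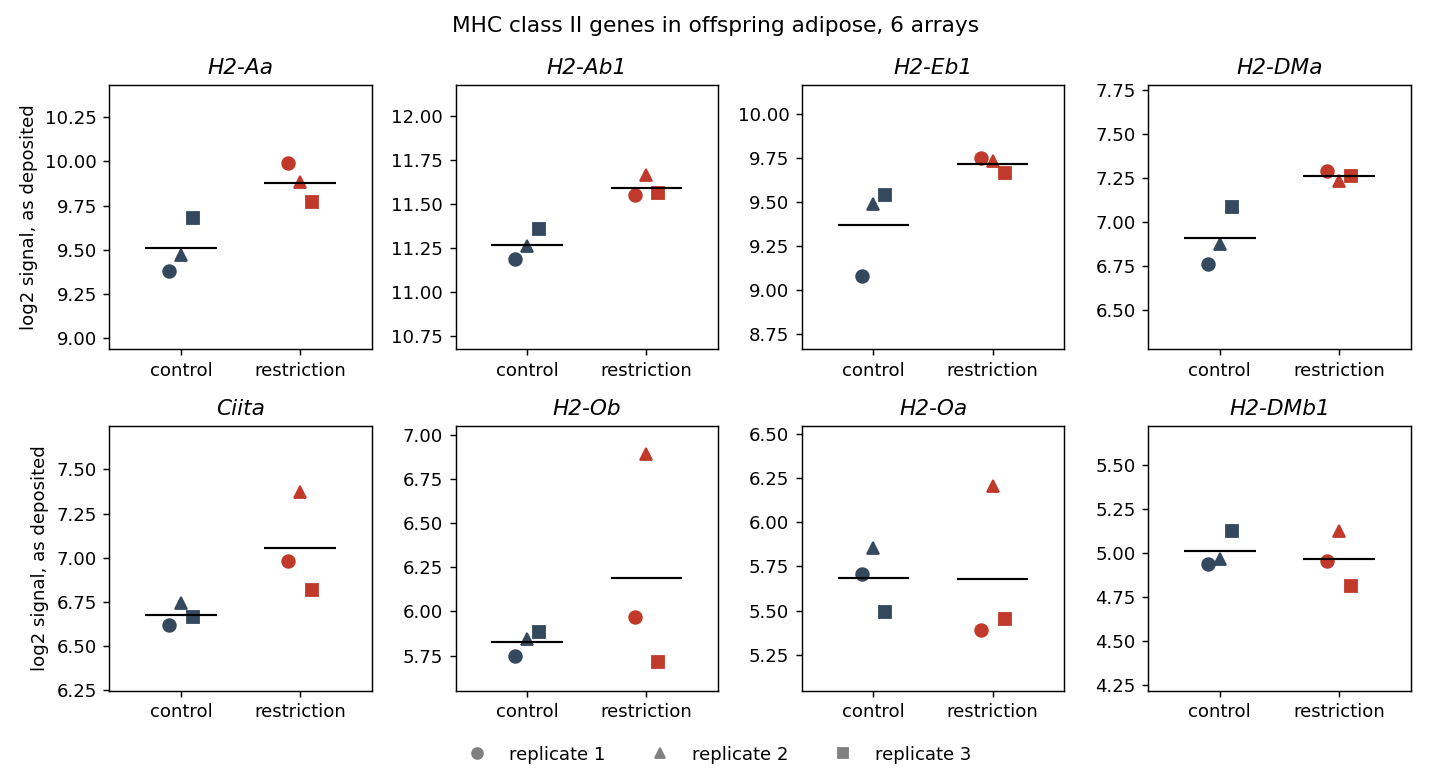
Deposited log2 signal of the 8 measured members in each of 6 arrays (vertical axis, the same span of 1.5 in every panel), by group, with replicates 1, 2 and 3 as circle, triangle and square and the group mean as a line. In the first 5 panels every restriction array lies above every control, and H2-Ob and H2-Oa are high in restriction replicate 2.

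The DO chains behaved differently from array to array: both were highest in restriction replicate 2 and much lower in the other restriction arrays. H2-Ob, the beta chain of the inhibitor DO, was at 6.89 in restriction replicate 2, at 5.97 and 5.71 in restriction replicates 1 and 3, and at 5.75 to 5.88 in the controls. Replicate 2 was 0.92 above the next array, while replicate 1 lay just above and replicate 3 just below the controls. The log2 difference of 0.37 ± 0.29 (SE, n = 3 per group; adjusted p = 0.947, limma) became 0.02 without that array and 0.61 without restriction replicate 3.

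H2-Oa, the alpha chain of DO, was at 6.20 in restriction replicate 2, at 5.39 and 5.45 in replicates 1 and 3, and at 5.71, 5.86 and 5.49 in the controls. Replicate 2 was above, and replicates 1 and 3 were below, every control. The values of replicates 1 and 3 also lay below the medians of their own arrays, 5.57 and 5.49. The mean difference was -0.01 ± 0.23 (log2, SE, n = 3 per group; adjusted p = 0.999, limma), and -0.27 without replicate 2.

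H2-DMb1, a beta chain of DM, was at 4.95, 5.12 and 4.81 in the restriction arrays and at 4.94, 4.96 and 5.13 in the controls. Every one of these values lay below the median of its own array (5.44 to 5.57), and the groups overlapped. Its difference was -0.05 ± 0.11 (log2, SE, n = 3 per group; adjusted p = 0.992, limma). The neighbouring gene H2-DMb2, an alternative beta chain of DM, was at 7.68 in restriction replicate 2 and at 5.43 to 5.86 in the other 5 arrays. H2-DMb1 and H2-DMb2 are close copies, and how far a probe set of one also binds RNA of the other was not tested.

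**Figure D3:**
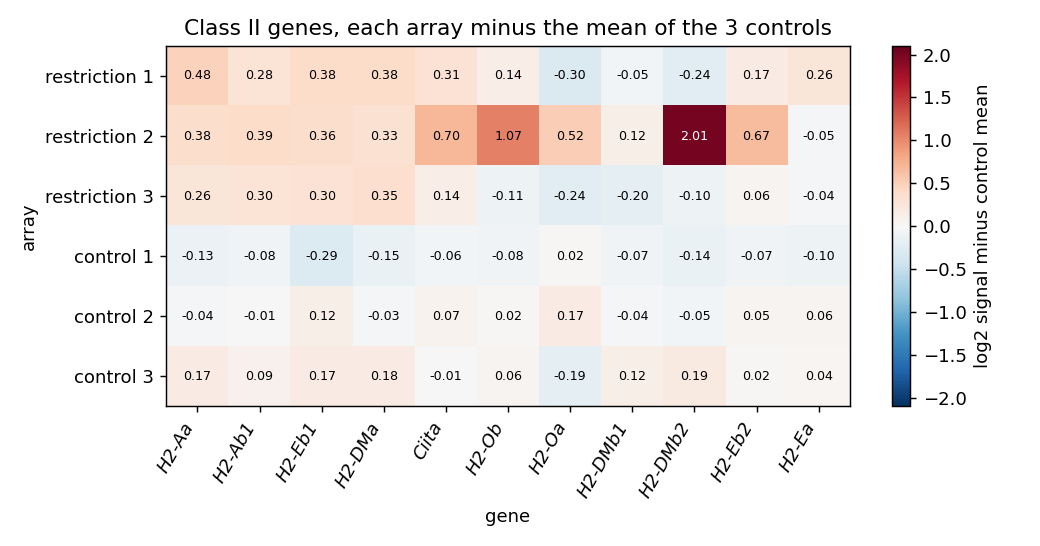
Log2 signal of each array (rows) minus the mean of the 3 controls, for the 8 measured members and 3 further class II chains (columns); red is above and blue below the control mean. The first 4 columns are between 0.26 and 0.48 in all 3 restriction arrays, while H2-Ob, H2-DMb2 and H2-Eb2 reach 1.07, 2.01 and 0.67 in restriction replicate 2.

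Of the 8 measured members 6 were higher in the restriction group and 2 lower, where 43.2% of all genes were higher, with a median log2 difference of 0.35 against -0.02 over all genes. None of the 8 passed an adjusted p of 0.05 in limma, beside 43 of 22180 genes or 0.194% that did; 5 members had an unadjusted p under 0.05, all higher, where 2.42% of all genes did in that direction. In 5 of 8 members (62.5%) all restriction arrays lay above all controls, which held for 3.53% of all genes, and 0 of 8 lay wholly below, against 6.06%. The members were chosen with earlier results in view, so these shares describe the genes and are no test of the group. The count of 5 with an unadjusted p under 0.05 fell to 3 when restriction replicate 1, restriction replicate 2 or control replicate 1 was left out. H2-Aa, H2-Ab1 and H2-DMa were the 3 each time. The median over members was 0.26 without restriction replicate 2.

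**Figure D4:**
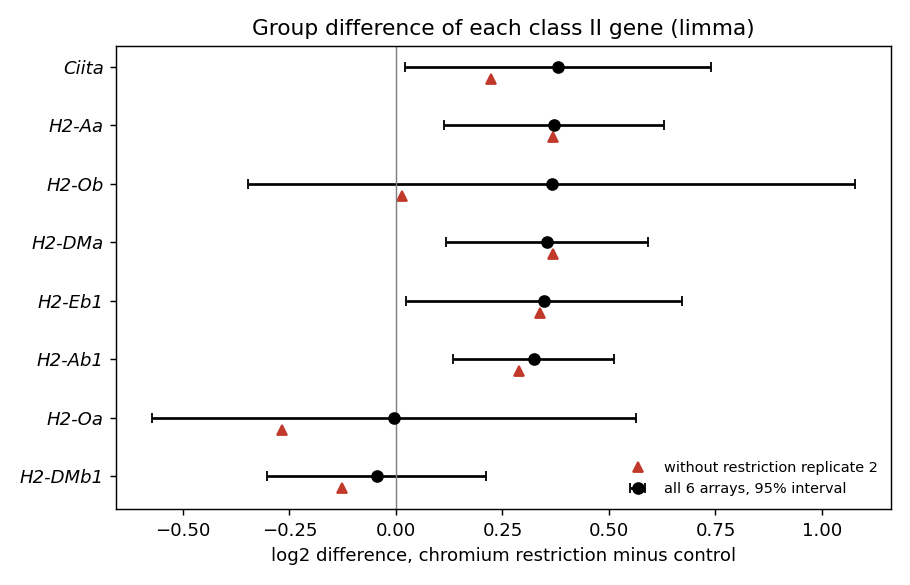
Log2 difference between groups for each measured member (black points, limma, bars are 95% intervals from 6 arrays) and the same difference without restriction replicate 2 (red triangles). The 5 intervals that lie above 0 belong to Ciita, H2-Aa, H2-DMa, H2-Eb1 and H2-Ab1, and none of these genes passed after adjustment over all genes.

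The invariant chain gene could be read only through a probe set annotated to Cd74 and Mir5107 together; the microRNA gene lies inside Cd74 in GRCm38.p6. This shared probe set was at 11.67, 11.84 and 11.91 in restriction replicates 1, 2 and 3 and at 11.04, 11.16 and 11.13 in the controls. All restriction arrays lay above all controls. Its log2 difference was 0.70 ± 0.08 (SE, n = 3 per group), with an adjusted p of 0.0922 in limma over all 33793 probe sets. The values of restriction replicates 2 and 3 carry extra digits: this is 1 of 64 probe sets in which some values are written to more digits than the rest of the deposited table. When such rows were left out, 0 genes in place of 43 passed the test in limma (1265 had an unadjusted p under 0.05), and what the extra digits stand for was not tested. The probe set is not counted among the 8 members, since the annotation does not assign it to 1 gene, and none of those 8 lies in a row with extra digits.

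Of 3 further class II chains on the array, none passed. H2-Eb2, a second beta chain gene of the E type, was at 5.57 in restriction replicate 2, at 5.08 and 4.96 in the other restriction arrays and at 4.83 to 4.95 in the controls, a log2 difference of 0.30 ± 0.16 (SE, n = 3 per group; adjusted p = 0.859, limma). Outside restriction replicate 2 the H2-Eb2 values lay below the medians of their arrays. H2-Ea, the alpha chain that pairs with H2-Eb1, was at 5.19, 4.89 and 4.89 against 4.83, 4.99 and 4.98, below the median of its array in each case. Mice of the H2 b haplotype do not transcribe H2-Ea, as background, and the sources used here do not name the strain.

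Genes that process antigen and the invariant chain, listed with ligases of class II and tetraspanins, were mostly higher in the restriction group, and none passed the test. Of 14 measured genes 10 were higher and 4 lower, where 43.2% of all genes were higher, and 0 passed in either direction. In 2 of the 14 all restriction arrays lay above all controls, which held for 3.53% of all genes. The median log2 difference of 0.20 was 0.09 without restriction replicate 2 and 0.12 without control replicate 1. Ctss, the cathepsin that makes the last cut in the invariant chain, was at 10.10, 10.21 and 9.28 in restriction replicates 1, 2 and 3 and at 9.0, 9.42 and 9.10 in the controls. Restriction replicate 3 lay within the control range. The log2 difference was 0.69 ± 0.26 (SE, n = 3 per group; adjusted p = 0.817, limma).

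Ifi30, the thiol reductase that opens disulfide bonds of antigens, was also highest in restriction replicates 1 and 2, with replicate 3 among the controls, at 8.97, 9.31 and 8.27 against 8.25, 8.31 and 8.41. The protease Lgmn was at 10.00, 9.36 and 9.41 against 9.17, 9.27 and 9.29, and Ctsz, a cathepsin, at 10.75, 10.55 and 10.60 against 10.20, 10.52 and 10.53. These last 2 genes were the ones without overlap between the groups. Ctsd, an aspartic protease of lysosomes, differed the other way by -0.33 ± 0.18 (log2, SE, n = 3 per group), and Marchf1 and Marchf8, ligases that mark class II molecules for removal from the surface, by -0.08 ± 0.11 and -0.17 ± 0.10. The cathepsins Ctsl, Ctsh and Ctsb differed by 0.31 ± 0.18, 0.39 ± 0.26 and -0.05 ± 0.08, and Sppl2a, the protease that clears the membrane stub of the invariant chain, by 0.10 ± 0.07. For the tetraspanins Cd53, Cd9 and Cd37 the differences were 0.43 ± 0.33, 0.19 ± 0.20 and 0.04 ± 0.22 (log2, SE, n = 3 per group).

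None of the factors that build the promoter complex or regulate Ciita passed the test. Rfx5, Rfxap and Rfxank, the RFX subunits, differed by -0.12 ± 0.11, -0.11 ± 0.10 and -0.09 ± 0.08 (log2, SE, n = 3 per group), and the NF-Y subunit genes Nfya, Nfyb and Nfyc by 0.04, -0.13 and -0.12. Creb1, which binds beside the X box, and Prdm1, a repressor of Ciita in plasma cells, differed by 0.08 ± 0.19 and 0.12 ± 0.09. Irf8 and Spi1, factors of myeloid and B cells, were higher in every restriction array than in any control, Irf8 at 6.78, 7.05 and 6.53 against 6.42, 6.37 and 6.23. Their log2 differences were 0.45 ± 0.14 and 0.36 ± 0.16 (SE, n = 3 per group; adjusted p = 0.770 and 0.817, limma). Over the 10 genes of this list 5 were higher and 5 lower, where 43.2% of all genes were higher, and 0 passed. Irf8 and Spi1 were the 2 of the 10 wholly above the controls, which held for 3.53% of all genes.

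Interferon gamma signalling, which induces Ciita, had no common direction. Of 17 measured genes 10 were higher and 7 lower, where 43.2% of all genes were higher, and 0 passed. Their median of 0.06 ranged from -0.01 to 0.10 with 1 array left out. Ifng was at 5.23, 5.50 and 5.29 against 5.22, 5.26 and 5.27, below or near the array medians of 5.44 to 5.57. The receptor gene Ifngr1 was lower in every restriction array, at 9.90, 9.97 and 10.09 against 10.38, 10.35 and 10.11, a difference of -0.29 ± 0.10 (log2, SE, n = 3 per group; adjusted p = 0.800, limma). The induced gene Gbp7 differed by -0.63 ± 0.23, Cxcl9, an induced chemokine, by -0.40 ± 0.31, and Irf1, a transcription factor of this response, by 0.08 ± 0.07. Gbp3 and Gbp5 differed by -0.33 ± 0.19 and -0.25 ± 0.27, but Iigp1, Igtp and Il12b by 0.36 ± 0.16, 0.26 ± 0.20 and 0.19 ± 0.08 (log2, SE, n = 3 per group). Il12b was the 1 gene of the list wholly above the controls and Ifngr1 the 1 wholly below, against 3.53% and 6.06% of all genes.

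Class I presentation, which shows peptides from inside the cell, was close to even. Of 17 measured genes 8 were higher and 9 lower, the median log2 difference was -0.01, and 0 had an unadjusted p under 0.05 in limma, against 5.95% of all genes in either direction. B2m, the light chain of class I, was at 13.28, 13.35 and 13.33 against 13.36, 13.29 and 13.44, and H2-K1, a heavy chain, differed by 0.11 ± 0.09. Nlrc5, the class I counterpart of Ciita, differed by -0.08 ± 0.23 (log2, SE, n = 3 per group). The difference between the class II and class I lists was not tested.

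Markers of the cells that carry class II were read beside these results. In RNA of whole tissue more cells of a type and more RNA per cell cannot be told apart. The mean of 13 dendritic cell markers was 6.43, 6.71 and 6.33 in restriction replicates 1, 2 and 3 and 6.26 to 6.40 in the controls; 11 were higher, 2 lower and 0 passed. Itgax, the integrin CD11c, was at 5.88, 6.43 and 5.89 against 5.61, 5.62 and 5.40, with no overlap and a log2 difference of 0.52 ± 0.17 (SE, n = 3 per group; adjusted p = 0.770, limma). It was the 1 marker of the 13 without overlap, which held for 3.53% of all genes in that direction. The 2 lower genes, Irf4 and Itgae, differed by -0.32 ± 0.32 and -0.13 ± 0.18. The median over the list was 0.16, and 0.09 without restriction replicate 2. What part dendritic cells have in the class II values was not tested.

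Macrophage markers were mixed. Their mean over 18 genes was 8.65, 8.25 and 8.12 in the restriction arrays and 7.95 to 8.34 in the controls, with 14 higher, 4 lower and 0 past the test. Control replicate 1, in which the classical chains were lowest, also had the lowest macrophage mean, and what part that has in the class II values was not tested. Mpeg1, a pore protein of phagocytes, was higher by 0.71 ± 0.10 (log2, SE, n = 3 per group; adjusted p = 0.145, limma) and Ccr2, a receptor of recruited monocytes, by 0.46 ± 0.16 (adjusted p = 0.812, limma). Cd163 and Mertk, scavenger and clearance receptors of resident macrophages, differed by -0.46 ± 0.14 and -0.33 ± 0.13, while the lineage genes Csf1r and Adgre1 differed by -0.01 ± 0.24 and 0.10 ± 0.32 (log2, SE, n = 3 per group). For C1qa, C1qb, C1qc and Mrc1 the differences were 0.16 ± 0.29, 0.16 ± 0.27, 0.19 ± 0.24 and -0.02 ± 0.14. The median over the macrophage list was 0.18. It was -0.02 without restriction replicate 1 and 0.03 without control replicate 1. The 6 general leukocyte genes were all higher, where 43.2% of all genes were, and 0 passed the test. Their median of 0.35 was 0.21 without restriction replicate 1. Their mean was highest in restriction replicate 2, at 8.10, with 7.91 and 7.54 in replicates 1 and 3 and 7.38 to 7.54 in the controls.

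B cell genes were highest in 1 array. Each of 14 measured B and plasma cell markers was highest in restriction replicate 2, and their mean was 7.22 there, 6.09 and 5.92 in restriction replicates 1 and 3, and 6.02 to 6.14 in the controls. Ms4a1, which encodes CD20, was at 7.87 in that array and at 5.41 to 6.52 in the others. The median log2 difference of the list was 0.20 with all arrays and -0.15 without that array. It was 0.33 and 0.41 without restriction replicates 1 and 3, and 0.11 without control replicate 1. Restriction replicate 2 was also the array with the highest H2-Oa, H2-Ob, H2-DMb2, H2-Eb2 and Ciita, and with the highest H2-Ab1, there by 0.10 over the next array.

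Intestinal transcripts were higher in the restriction group in 12 of 12 measured genes, where 43.2% of all genes were higher. Of the 12, 7 were highest in restriction replicate 2. Sis, a brush border disaccharidase, was at 7.09 in that array and at 4.53 to 4.62 elsewhere. Fabp2, a fatty acid binding protein of enterocytes and the 1 gene of the list past the test, was high in all 3 restriction arrays, at 7.30, 7.15 and 7.31 against 5.04 to 5.50 (adjusted p = 0.00358, limma). The row of Fabp2 has no extra digits, but 0 genes, Fabp2 included, passed when rows with extra digits were left out. Lgals4 and Vil1 also lay above all controls in every restriction array. With Fabp2 this held for 3 of the 12 genes, against 3.53% of all genes. The test called 1 of the 12, against 0.194% of all genes. The median of the list was 0.35, and 0.04 without restriction replicate 2. What part B cells or intestine have in the class II values was not tested.

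**Figure D5:**
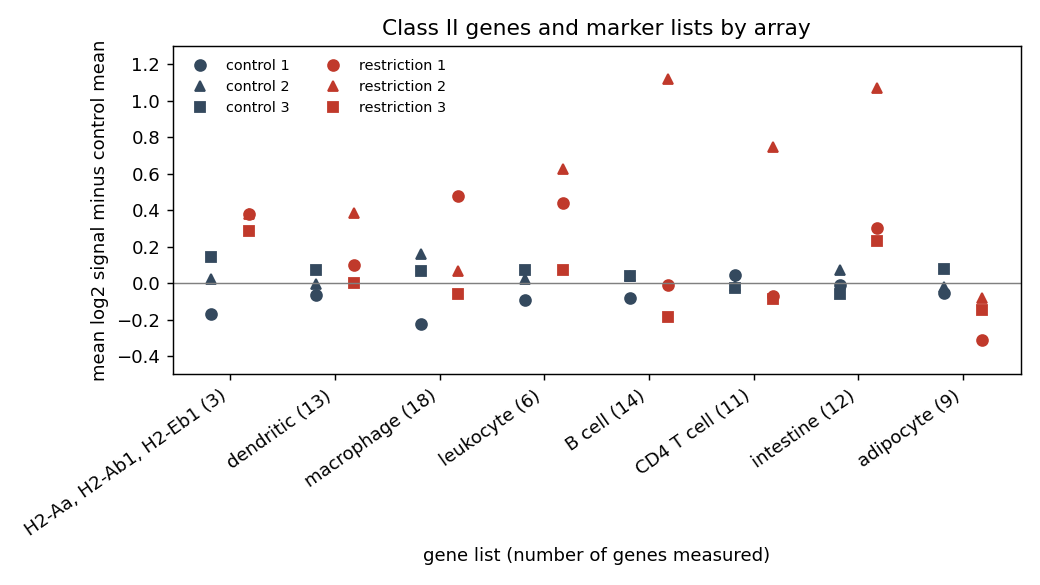
Mean log2 signal of 3 classical class II genes and of 7 marker lists in each array, minus the mean of the 3 controls; the number of genes is in parentheses, and colours and shapes mark group and replicate. The class II genes lie above the controls in all 3 restriction arrays. The dendritic, leukocyte, B cell, CD4 T cell and intestine lists are highest in restriction replicate 2, and the macrophage list is highest in replicate 1.

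Restriction replicates 1 and 3 held liver transcripts: the mean of 10 liver genes was 11.53 and 11.10 there, 7.06 in replicate 2 and 7.11 to 7.45 in the controls. Of these genes Apoa1 was above the controls in replicate 2 too, at 7.44 against 5.50 to 6.27. In the group means 9 of the 10 were higher and 1 lower. The lower gene, Cyp2e1, was below every control in all restriction arrays, at 12.88, 12.88 and 12.79 against 13.11 to 13.28. H2-Aa, H2-Ab1, H2-Eb1 and H2-DMa were 0.38, 0.39, 0.36 and 0.33 above the control mean in replicate 2, and what part liver tissue has in the class II values was not tested.

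Adipocyte genes were mostly lower in the restriction group, 8 of 9, where 43.2% of all genes were higher. Retn, higher by 1.52, and Adipoq, with a difference of -1.22 (log2), passed the test, as did 0.194% of all genes. Both lie in rows with extra digits. Adipoq and Pnpla2 were the 2 of the 9 genes wholly below the controls, which held for 6.06% of all genes. Retn was the 1 gene wholly above, against 3.53%. Pnpla2, a lipase, was lower in every restriction array with a difference of -0.35 ± 0.11, and Slc2a4, the insulin-regulated glucose transporter, and Plin1, a lipid droplet protein, differed by -0.78 ± 0.28 and -0.44 ± 0.20 (log2, SE, n = 3 per group; adjusted p = 0.760, 0.808 and 0.817, limma). Fabp4, at 13.53 to 13.72, and Lep, at 11.75 to 12.00, differed by -0.04 ± 0.08 and -0.01 ± 0.09. What part adipocyte RNA has in the class II values was not tested.

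The T cell side and costimulation gave no call. Of 11 measured CD4 T cell genes 9 were higher and 0 passed. Their median was 0.26, -0.05 without restriction replicate 2 and 0.17 without control replicate 3. Cd4 itself was at 7.11 in restriction replicate 2 and at 5.64 to 5.82 in the other arrays. Among 10 costimulatory genes 5 were higher and 5 lower, with a median from -0.06 to 0.12 when 1 array was left out: Cd48 and Cd83, surface proteins of leukocytes, differed by 0.39 ± 0.13 and 0.35 ± 0.13, but Cd80, Cd86 and Cd40 by 0.04 ± 0.18, -0.16 ± 0.14 and 0.08 ± 0.18 (log2, SE, n = 3 per group).

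The genes whose pattern was most like the mean of H2-Aa, H2-Ab1 and H2-Eb1 were taken among 5246 other genes brighter than the median gene and with an SD of at least 0.2 over the 6 arrays. Pearson's r over the 6 arrays, given as a measure of likeness, was 0.97 for Tnfrsf12a, a receptor of the TNF family, and for Cnn2, a calponin, Smap2, an ArfGAP, Dtx4, a Deltex ligase, and Panx1, a channel protein. It was 0.96 for Creb3l1, Tubb2a and Crip1. The 6 points differ in liver, intestinal and B cell transcripts as given above, and 6 arrays are few for such a measure. Tnfrsf12a was at 6.72, 6.79 and 6.61 in the restriction arrays and at 5.97, 6.36 and 6.55 in the controls.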

How the data were processed

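One table of array values was used, with 33793 probe sets on 6 one-colour arrays. The values were taken as log2 signal as deposited by the authors, from their range; the log base, summarisation and normalization are unstated in the sources used here. Biotin-labelled total RNA was hybridised, per the labels. Gene names came from the platform annotation, which gave 1 symbol for 23521, several for 1814 and none for 8458. The brightest single-symbol probe set of each of 22180 genes was fitted in limma 3.58.1 (lmFit, eBayes; R 4.3.3) as restriction minus control. Tests were two-sided, Benjamini-Hochberg adjusted over all genes and called at an adjusted p of 0.05, with no filter on dim genes. The fit was tested on simulated data, with the spread of the control arrays in both groups and changes larger than those of the members. That setting does not show how the fit behaves at the spread of the restriction arrays or at small changes. The number of arrays, 3 per group, limits the precision.

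The members, lists and tests were chosen with earlier results of these data known. Named genes were all members, genes of 4 class II related lists, up to 4 genes with the smallest p of each other list, defining genes of those lists named for context after their values were seen, and the 8 genes most like the classical chains; Cd74 was meant to enter that mean but has no probe set of its own. Lists are described by counts and medians. Beside these counts, 43.2% of all genes were higher, 3.53% lay wholly above the controls, 6.06% lay wholly below and 0.194% passed. Promoters come from RefSeq, GRCm38.p6. Those of H2-Ab1 and Ciita are not used here, and Cd74 was left out of the member count by its chromosome and is not shown.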

Additional observations from a re-analysis of the deposited data

How the results depend on the processing

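Under 17 alternatives 0 members passed an adjusted p of 0.05 in limma. The lowest of the 8 counted members was 0.136, for H2-Ob without the arrays rich in liver transcripts; that setting leaves 1 restriction array, replicate 2, which is assumed to vary like the controls, so its values are those of replicate 2 alone. The median over members was 0.26 to 0.38 with 1 array left out and 0.30 to 0.39 otherwise. H2-Aa, H2-Ab1, H2-Eb1, H2-DMa, Ciita and H2-Ob kept their sign throughout. Members with an unadjusted p under 0.05 numbered 5, against 3 with median centring and 3 to 4 with 1 array left out. H2-DMb1 and H2-Oa were 0.12 and 0.52 in that replicate alone, and ranged from -0.13 to 0.031 and from -0.27 to 0.14 with 1 array left out, so neither has a settled direction. The 43 genes called over all became 6 without those arrays, 24 to 439 with 1 array left out, and 0 without rows with extra digits (1265 at an unadjusted p under 0.05). The replicate block gave 0 calls over all genes (1337 at an unadjusted p under 0.05) and a member median of 0.35; same-numbered samples had correlated deviations of -0.12 to 0.08 and 0 of 3 restriction samples correlated best with their own number, so the numbers are not taken to pair samples. Keeping probe sets with several symbols, chosen after seeing the data, gave a member median of 0.35 over 9, with 6 at an unadjusted p under 0.05 and an adjusted p of 0.0922 for Cd74, whose row has extra digits. The cause of these shifts was not tested. Signal under the array median limits what H2-DMb1 and H2-Ea can show, and in some arrays what H2-Oa and H2-Eb2 can show.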

Other observations

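Of 4 measured genes of lymphoid stroma 2 were highest in restriction replicate 2. Cxcl13, a chemokine that attracts B cells, was at 10.61 in that array and at 7.28 and 7.91 in restriction replicates 1 and 3, below the controls at 8.60, 9.87 and 9.01. Ltb, lymphotoxin beta, reached 7.83 in replicate 2, while the other 5 arrays ran from 6.13 to 6.53. Madcam1, an adhesion molecule of mucosal vessels, was lowest there, at 5.36 against 5.48 to 5.55, and Lta, lymphotoxin alpha, was at 5.41 within the 5.26 to 5.60 of the others. Of these genes 0 passed in limma, and 0 had an unadjusted p under 0.05.

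Ighm, the heavy chain of immunoglobulin M, was higher in every restriction array than in any control, at 10.55, 12.19 and 10.13 against 9.69, 9.33 and 9.42. Its log2 difference was 1.47 ± 0.51 (SE, n = 3 per group; adjusted p = 0.805, limma), and 0.86 without restriction replicate 2, in contrast to Ms4a1, whose values in restriction replicates 1 and 3 were 5.76 and 5.41 and whose controls ran from 6.01 to 6.52.

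Among epithelial keratins, Krt8 was at 7.04, 6.71 and 6.85 in the restriction arrays and at 6.40, 6.54 and 6.48 in the controls, a log2 difference of 0.40 ± 0.10 (SE, n = 3 per group; adjusted p = 0.678, limma). Of 5 genes on that list 3 were higher, 2 lower and 0 passed.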
